A study of Mus musculus with 8 samples.

Results

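Transcript levels, rather than signaling itself, were described in cultured mouse bone marrow stromal cells for 5 genes of adrenomedullin signaling. These genes are those of the receptor activity-modifying proteins, Ramp1, Ramp2 and Ramp3, the receptor gene Calcrl and the ligand gene Adm. They were chosen by name, as 5 of the 19460 genes in the table, with an earlier view of how they differed between the genotypes, so their differences between genotypes are given below as descriptions. How many of them lie past the threshold of the fit across all genes is stated once, beside the same share of all genes, and supports nothing. Polyadenylated RNA was sequenced from 8 libraries. The cultures behind 4 of them were wild-type, and those behind the other 4 were homozygous for Lgr6-GFP-ires-CreERT2, an allele that places a fluorescent reporter and an inducible Cre recombinase at Lgr6 and that the titles call Lgr6-null; the background is C57BL/6 for both. All cultures had spent 10 days in osteogenic medium holding 10% serum, 4 mM β-glycerophosphate and 50 µg/mL ascorbic acid. The mice are described as adult, with no further age, and the labels do not say how many animals or cultures stand behind a genotype, so the spread between libraries may be technical. Library numbers are those of the table's columns, which run from M0 to M3 for wild-type and skip M1 but reach M4 for Lgr6-null.

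Calcrl is a receptor that reaches the cell surface and binds peptides only together with a RAMP. With RAMP1 it forms the receptor of calcitonin gene-related peptide (CGRP), a neuropeptide that acts on bone cells and blood vessels, and with RAMP2 or RAMP3 it forms the receptors of adrenomedullin, a vasodilator peptide that many cell types secrete. These receptors raise cyclic AMP through the stimulatory G protein, and both peptides are known to act on cultured osteoblasts. In tissues, Calcrl and Ramp2 are best known from endothelium.

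The promoters of the 3 genes whose counts allow a comparison are shown first, because Ramp1 was lower and Calcrl and Adm were higher in Lgr6-null. Each is 250 bases before to 50 bases after the start, 5′ to 3′, from RefSeq on GRCm38.p6; 4 of the 5 genes had an entry in that table. Ramp1 is at chr1:91179572-91179871 (plus strand), Calcrl at chr2:84425217-84425516 (minus strand) and Adm at chr7:110627407-110627706 (plus strand). Capitals mark matches, on either strand, to any of 6 short motifs.
Ramp1: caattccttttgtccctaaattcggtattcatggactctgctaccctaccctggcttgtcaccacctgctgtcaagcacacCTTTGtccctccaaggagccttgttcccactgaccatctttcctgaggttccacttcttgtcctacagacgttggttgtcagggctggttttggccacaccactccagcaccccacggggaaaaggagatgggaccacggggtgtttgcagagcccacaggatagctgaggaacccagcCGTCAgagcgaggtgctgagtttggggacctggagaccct
Calcrl: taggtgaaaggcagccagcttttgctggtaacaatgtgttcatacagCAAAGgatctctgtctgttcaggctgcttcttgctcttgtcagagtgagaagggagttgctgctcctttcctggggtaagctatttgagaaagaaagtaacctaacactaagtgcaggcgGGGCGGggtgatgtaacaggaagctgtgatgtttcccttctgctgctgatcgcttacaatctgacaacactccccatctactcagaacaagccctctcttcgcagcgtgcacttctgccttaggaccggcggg
Adm: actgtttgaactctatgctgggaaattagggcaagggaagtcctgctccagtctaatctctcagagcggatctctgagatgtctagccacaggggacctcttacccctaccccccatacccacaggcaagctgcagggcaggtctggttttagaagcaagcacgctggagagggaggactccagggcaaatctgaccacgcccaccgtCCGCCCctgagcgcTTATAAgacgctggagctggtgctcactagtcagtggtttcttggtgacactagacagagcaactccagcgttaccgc
The motifs were the hypoxia response element core ACGTG, the core of the cyclic AMP response element TGACG, the GC box GGGCGG, the RUNX core TGTGGT, the TCF/LEF core CTTTG and the TATA core TATAA. Among 32851 promoters of the same length, 19.6%, 20.8%, 35.7%, 16.8%, 53.9% and 24.9% held them in that order. Adm held TATAA on both strands in overlapping letters, with the plus-strand match starting 27 bases before the start site, and a GC box on the minus strand. Calcrl held a GC box and a minus-strand TCF/LEF core. Ramp1 held a TCF/LEF core and a minus-strand TGACG, the latter after the start site. Promoter GC content was 55.7% for Ramp1, 50.7% for Calcrl and 56.0% for Adm, beside a median of 52.7%. These matches describe letters in the window and were not tested as binding sites.

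Libraries held 7629968 to 21135173 reads in genes, the lowest in Lgr6-null M4. Lgr6 was at 61.1 to 103 normalized counts in Lgr6-null and at 996 to 1667 in wild-type, with a two-sided p of 0.0286 by exact permutation, as small as 4 against 4 libraries can give. In the limma fit across 14294 tested genes, 1855 were higher and 1821 lower in Lgr6-null at an adjusted p under 0.05. Scaling every library to one total gave 2886 higher and 1281 lower. The markers of the labelled stromal cells were present, and so were those of macrophages. On means over all 8 libraries of both genotypes, 14 macrophage genes held 2.48% of all normalized counts, 9 osteoblast genes 5.02% and 12 endothelial genes 0.00140%. The order differed by genotype: osteoblast sums were above macrophage sums in every wild-type library and below them in every Lgr6-null library. Among further marker lists, 3 of 8 tested smooth muscle and pericyte genes were called higher and 1 lower, 3 of 7 mesenchymal genes higher and 1 lower, and 2 of 4 adipocyte genes lower. Of 3 tested Schwann cell genes 0 were called by limma, and 1, Mbp, had an unadjusted p under 0.05 (adjusted p = 0.120).

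Ramp1, the CGRP co-receptor, was the member with the most reads in wild-type and the one that differed most. Normalized counts, the authors' read counts divided by a size factor for each library, were 944, 1199, 982 and 973 in wild-type M0, M1, M2 and M3. They were 152, 178, 158 and 124 in Lgr6-null M0, M2, M3 and M4. Every Lgr6-null library lay far below every wild-type library, and M4, the lowest, rested on 65 reads. In 14.7% of all tested genes every Lgr6-null library was below every wild-type library. The means were 1024 ± 117 (SD, n = 4) and 153 ± 22.4 (SD, n = 4), a 6.70-fold lower mean in Lgr6-null and a log2 difference of -2.74 (SE 0.12). Here as in the rest, log2 differences are Lgr6-null minus wild-type of log2(normalized count + 1). In bulk RNA, fewer cells of a type and less RNA per cell cannot be told apart.

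Osteoblast markers moved the same way in the same libraries. All 9 of 9 markers were called lower (median log2 difference -2.60), and their summed level ranged from 1182689 to 1557797 normalized counts in wild-type but from 184754 to 259198 in Lgr6-null. None of the 9 was at 0 in a library. Wild-type M1 had the highest Ramp1 and the highest osteoblast sum of all libraries, and Lgr6-null M4 the lowest of both. The part of the osteoblast markers in the Ramp1 difference was not tested. The 3 genes whose levels followed Ramp1 most closely over the 8 libraries, among 11098 candidates, were Id3, a target of BMP signaling (Pearson r = 0.998), Ibsp, which encodes bone sialoprotein and is itself one of the 9 markers (r = 0.998), and Cgref1, a secreted calcium-binding protein (r = 0.998). With the genotype means removed, r was 0.870, 0.924 and 0.930. All 8 libraries share the genotype contrast, so the first values describe mainly that difference.

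Ramp2 and Ramp3, the adrenomedullin co-receptors, were close to the limit of detection in both genotypes. Ramp2 had 16, 6, 6 and 4 reads in wild-type M0 to M3 and 0, 11, 8 and 2 reads in Lgr6-null M0, M2, M3 and M4. Ramp3 had 10, 0, 3 and 6 reads in the wild-type libraries and 2, 3, 0 and 3 reads in the Lgr6-null libraries. The genotypes overlapped for both genes, and neither passed the filter for testing, a value of 10 or more in 4 or more libraries. The ratio of read rates, Lgr6-null over wild-type, was 0.627 for Ramp2 with an exact 95% binomial interval from 0.344 to 1.12. For Ramp3 it was 0.402 with an interval from 0.152 to 0.963. Both intervals cover counting error only, and the spread between libraries was larger than the difference. Of 3301 annotated exon bases of Ramp2, 1103 are shared on the same strand with Vps25, through a read-through transcript, and the sources used here do not say how reads in shared bases were counted. Vps25 itself had 47 reads over the 8 libraries.

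Calcrl, the receptor that RAMPs accompany, was higher on average in Lgr6-null, with overlap between the genotypes. Normalized counts were 299, 257, 250.0 and 173 in wild-type M0, M1, M2 and M3 and 526, 308, 476 and 298 in Lgr6-null M0, M2, M3 and M4. Lgr6-null M0 and M3 stood above all others, while M2 and M4 were near wild-type M0. The means were 245 ± 52.2 (SD, n = 4) in wild-type and 402 ± 116 (SD, n = 4) in Lgr6-null, 1.64-fold higher, with a log2 difference of 0.70 (SE 0.22). The genes that followed Calcrl most closely were Scoc, a Golgi coiled-coil protein (r = 0.983 over 8 libraries and 0.983 with genotype means removed), Capza2, an actin-capping subunit (0.981 and 0.961), and Rap1b, a small GTPase (0.975 and 0.951).

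Macrophage markers were also highest in the 2 Lgr6-null libraries with the most Calcrl. Of 14 markers, 11 were called higher and 0 lower (median log2 difference 0.58). Their summed level was 515647, 405680, 612594 and 406766 in Lgr6-null M0, M2, M3 and M4 and 265974 to 315157 in wild-type. No macrophage marker was at 0 in a library. Within wild-type the order differed, since M0 had the highest Calcrl and the lowest macrophage sum. With the macrophage markers' mean on the log2 scale as a covariate, the Calcrl log2 difference was 0.10; the macrophage sums did not overlap between the genotypes, so this fit separates them only in part. Endothelial markers were low: all 12 averaged under 100 normalized counts, and Tek and Emcn were at 0 in some libraries. The sums of the 12 were 199 to 276 in wild-type and 172 to 244 in Lgr6-null. Of 8 tested, 1 was called higher (Tie1) and 2 lower (Kdr and Erg).

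Adm, which encodes the precursor of adrenomedullin, was higher in every Lgr6-null library. Normalized counts were 172, 235, 233 and 227 in wild-type M0, M1, M2 and M3. They were 303, 277, 372 and 357 in Lgr6-null M0, M2, M3 and M4. The lowest Lgr6-null library, M2, lay above the highest wild-type library, M1, a separation in this direction that 14.4% of all tested genes had. The annotation holds a gene antisense to Adm, Gm28863, and another antisense to Ramp3, Gm11978; the library kit keeps strand, but the sources used here do not state the strand setting of the counting. The means were 217 ± 30.2 (SD, n = 4) and 327 ± 44.5 (SD, n = 4), 1.51-fold higher in Lgr6-null, with a log2 difference of 0.59 (SE 0.13). With the macrophage covariate the Adm log2 difference was 0.35, while Ramp1 was at -2.82. That fit separates the macrophage markers from the genotype only in part, and no other marker list was used as a covariate. The part of the macrophage markers in the Adm difference was not tested. The closest followers of Adm were Mpv17l2, a mitochondrial inner membrane protein (r = 0.984, and 0.974 with genotype means removed), Rufy1, an endosomal adaptor (0.979 and 0.926), and Arf2, a small GTPase of membrane traffic (0.977 and 0.915).

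Of the 3 members that passed the filter, 2 lay past the threshold as higher and 1 as lower; over all tested genes 25.7% were called, 13.0% higher and 12.7% lower. Since the members were chosen on this contrast, nothing is read from that count. Calcrl did not lie past the threshold without wild-type M1, M2 or M3 or without Lgr6-null M0 or M3, where its log2 difference was 0.73, 0.71, 0.54, 0.55 and 0.60.

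**Figure D1:**
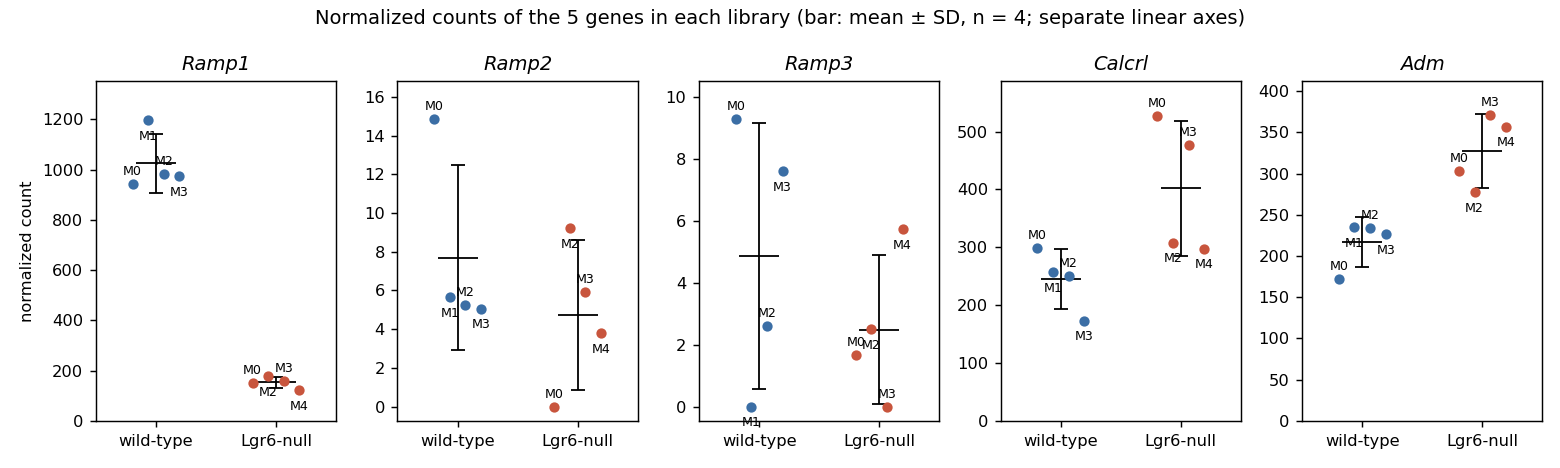
Normalized counts (y axis, linear, a separate scale for each gene) of the 5 genes in wild-type (blue) and Lgr6-null (red) libraries; points are libraries named by number, and bars give the mean ± SD of 4. Ramp1 and Adm do not overlap between the genotypes, as in 29.1% of all tested genes. Calcrl overlaps, and Ramp2 and Ramp3 stay under 15 normalized counts.

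Levels of different genes were compared per kilobase of annotated exon (GENCODE, GRCm38). In wild-type, Ramp1 was at 339 ± 38.8 normalized counts per kb (SD, n = 4), Adm at 134 ± 18.7 and Calcrl at 50.1 ± 10.7, and no 2 neighbours in that order overlapped between libraries. In Lgr6-null the order was Adm at 202 ± 27.5, Calcrl at 82.4 ± 23.8 and Ramp1 at 50.6 ± 7.40, again without overlap. Ramp3 and Ramp2 followed in both genotypes, at 3.53 ± 3.12 and 2.33 ± 1.44 per kb in wild-type and 1.80 ± 1.74 and 1.44 ± 1.17 in Lgr6-null, and they overlapped each other. Over the exon bases that Ramp2 does not share with Vps25, its mean was 3.50 per kb in wild-type and 2.16 in Lgr6-null. With the length of the longest transcript in place of all exons, Calcrl and Ramp1 overlapped in Lgr6-null.

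Per kb of annotated exon, the balance between Ramp1 and Calcrl transcripts in bulk RNA lay on different sides of 1 in the genotypes. Which cells held each transcript was not tested, so the ratios below do not give a balance within cells. Per kb, Ramp1 over Calcrl was 5.11, 7.55, 6.34 and 9.07 in wild-type M0, M1, M2 and M3, and 0.467, 0.935, 0.534 and 0.673 in Lgr6-null M0, M2, M3 and M4. All wild-type libraries therefore had more Ramp1 than Calcrl transcript per length, and all Lgr6-null libraries less. The mean was 7.02 ± 1.69 (SD, n = 4) in wild-type and 0.652 ± 0.207 (SD, n = 4) in Lgr6-null. With the longest transcript as length it was 9.12 and 0.848, and Lgr6-null M2 was then above 1, at 1.22. Adding Ramp2 and Ramp3 to Ramp1 gave 7.14 ± 1.70 and 0.700 ± 0.238. Ramp1 made up 98.2% ± 1.33 of the summed Ramp level per kb in wild-type and 93.9% ± 4.15 in Lgr6-null (SD, n = 4), and the genotypes overlapped in that share. Adm over Calcrl was 2.81 ± 0.902 (SD, n = 4) for wild-type and 2.60 ± 0.785 (SD, n = 4) for Lgr6-null, a difference within the spread between libraries.

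**Figure D2:**
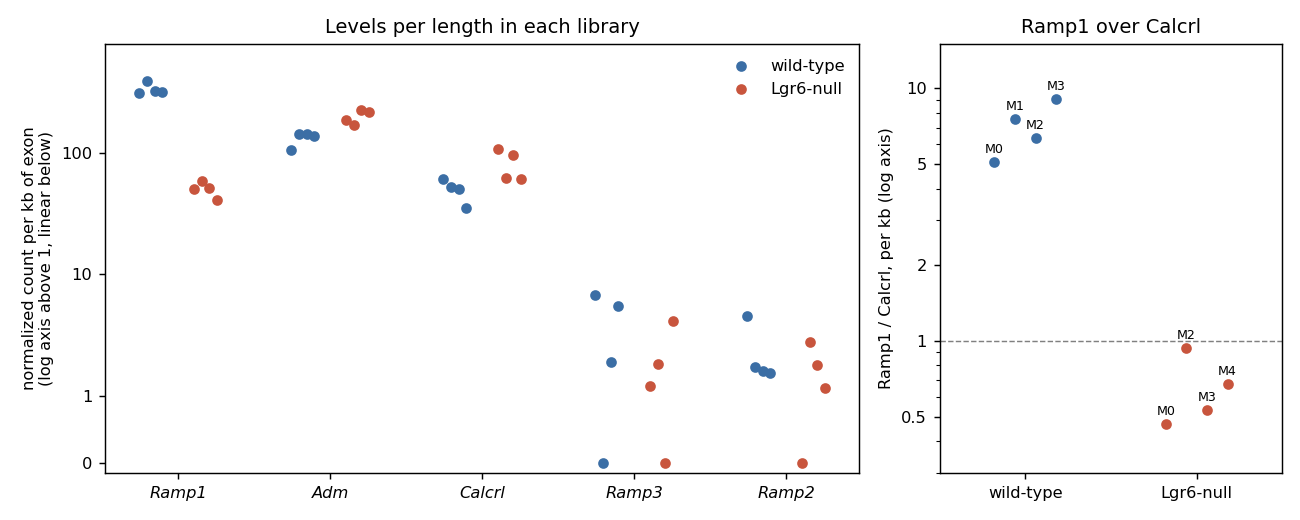
Left, normalized counts per kb of exon in each library (y axis logarithmic above 1 and linear below) for the 5 genes, wild-type in blue and Lgr6-null in red. Right, Ramp1 over Calcrl per kb (log axis, dashed line at 1): wild-type libraries lie between 5.11 and 9.07 and Lgr6-null libraries between 0.467 and 0.935. With the longest transcript as length, Lgr6-null M2 was above 1, at 1.22.

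**Figure D3:**
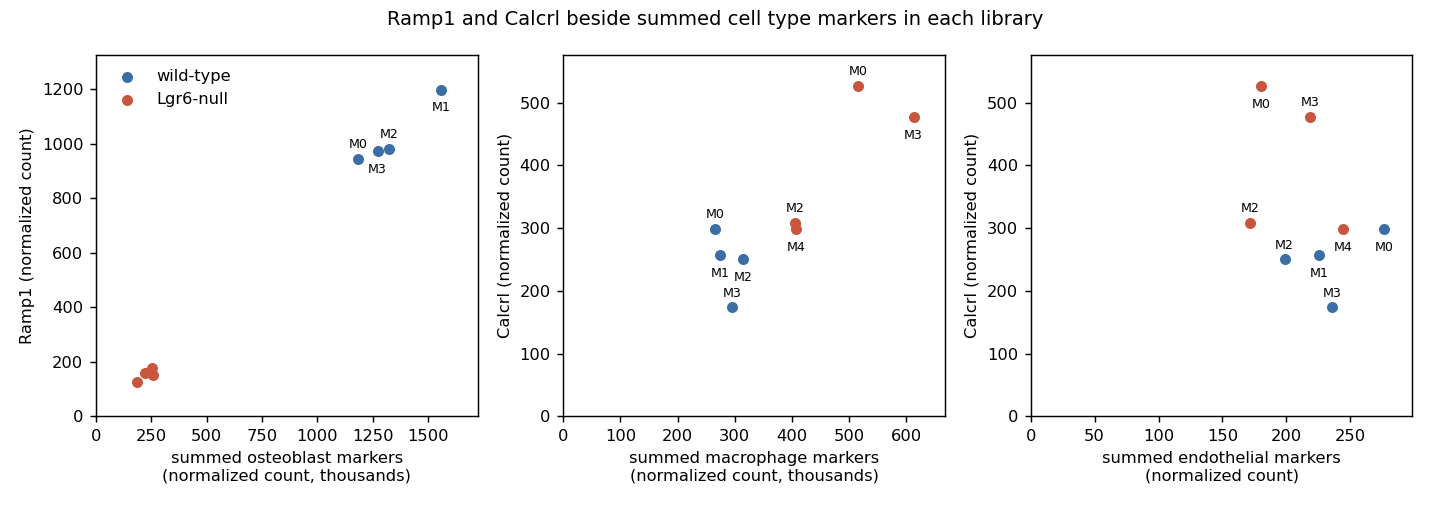
Ramp1 against the summed osteoblast markers, and Calcrl against the summed macrophage and endothelial markers, one point per library (axes in normalized counts, linear from 0, with the osteoblast and macrophage sums scaled as their axis labels state). Ramp1 and the osteoblast sum separate the genotypes, Calcrl is highest in Lgr6-null M0 and M3 with the largest macrophage sums, and endothelial sums overlap between genotypes.

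Around these members, 7 lists of pathway genes were counted. Of 88 listed genes 72 were tested, with 14 called higher and 13 lower and a median log2 difference of 0.02, beside 0.00 over all tested genes. Over all tested genes 13.0% were called higher and 12.7% lower, and each count below stands beside these shares. With one total for every library the split was 23 higher and 10 lower. With the macrophage covariate, 341 of all tested genes were called higher and 552 lower, beside 1855 and 1821 without it. Among the pathway genes, 4 were then called higher and 5 lower. Each call lost with that covariate below stands beside this fall over all genes. Adjusted p-values below are from limma over all 14294 tested genes, and pairs of values are normalized counts, mean ± SD of 4 wild-type and then of 4 Lgr6-null libraries.

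Among 8 further ligands and receptors, 3 were tested, 0 were called higher and 2 lower. Adm2, or intermedin, a peptide that acts on the same receptors, was at 73.3, 89.9, 67.9 and 88.6 normalized counts in wild-type M0 to M3 and at 3.34, 16.7, 10.4 and 21.0 in Lgr6-null M0, M2, M3 and M4. It fell by 2.77 on the log2 scale (SE 0.45, limma adjusted p = 0.00183) while Adm, its relative, had the opposite direction. The Lgr6-null values rested on 49 reads in all, and the call was lost with the macrophage covariate, at -1.70. Ackr3, an atypical receptor that takes up adrenomedullin as well as the chemokine CXCL12, fell from 2077 ± 336 to 355 ± 187 (SD, n = 4; log2 difference -2.65, SE 0.27, adjusted p = 0.000152). Lgr6-null M2 was the highest of its genotype for Ackr3, at 634, and still below the lowest wild-type library. The Ackr3 log2 difference was -2.04 with the macrophage covariate (adjusted p = 0.0472). Crcp, an intracellular component of the CGRP receptor, averaged 411 ± 20.4 for wild-type and 444 ± 24.7 for Lgr6-null (log2 difference 0.11, adjusted p = 0.301). Gpr182, a scavenging receptor once proposed for adrenomedullin, was at 9.81 ± 5.87 and 8.88 ± 1.75 and was not tested. Calca, Calcb, Calcr and Iapp were not analysed here.

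Genes that process or clear the peptides parted in direction: of 7 tested, 1 was called higher and 2 lower. Mme, or neprilysin, a surface peptidase that cleaves adrenomedullin, fell from 2269 ± 426 to 907 ± 125 (log2 difference -1.31, SE 0.14, adjusted p = 0.000202), and its call was lost with the macrophage covariate, at -0.88. Ece1, an endosomal peptidase that degrades CGRP inside cells, rose from 1985 ± 108 to 3325 ± 91.2 (log2 difference 0.75, SE 0.06, adjusted p = 3.02e-05). In both genes the genotypes did not overlap, as in 29.1% of all tested genes. Pam, the enzyme that amidates both peptides, had a log2 difference of 0.14 (adjusted p = 0.313).

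Among 9 other receptors reported to bind RAMPs, 3 were tested, 0 were called higher and 2 lower. Pth1r, the parathyroid hormone receptor of osteoblasts, fell from 5560 ± 216 to 1061 ± 393 (SD, n = 4; log2 difference -2.47, SE 0.23, adjusted p = 9.30e-05). Gper1, a membrane estrogen receptor, fell from 84.1 ± 20.1 to 33.2 ± 14.5 (log2 difference -1.39, SE 0.31, adjusted p = 0.0101). With the macrophage covariate Pth1r was at -1.38 and still called (adjusted p = 0.00884), and Gper1 was at -0.03 (adjusted p = 0.975). The osteoblast sums given with Ramp1 moved with both genes, and their part was not tested.

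Of 9 receptor trafficking genes tested, 2 were called higher and 0 lower. Grk5, a kinase that marks active receptors for desensitization, rose from 248 ± 10.4 to 430 ± 33.5 (log2 difference 0.79, SE 0.08, adjusted p = 0.000147). Arrb2, the arrestin that then binds them, rose from 2611 ± 93.3 to 3943 ± 918 (log2 difference 0.57, SE 0.13, adjusted p = 0.0119). Arrb2 was highest in Lgr6-null M3, the library with the largest macrophage sum, and was at -0.02 with the macrophage covariate. The macrophage markers did not overlap between the genotypes, so this fit separates them only in part. The part of the macrophage markers in the Arrb2 difference was not tested.

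Downstream of the receptor, the genes that make, sense or break down cyclic AMP were split. Of 30 tested, 9 were called higher and 6 lower, with a median log2 difference of 0.05. Pkia, an inhibitor of protein kinase A, rose from 61.7 ± 8.19 to 187 ± 35.6 (log2 difference 1.58, SE 0.17, adjusted p = 0.000176). The phosphodiesterases Pde4b (1.01, SE 0.18, adjusted p = 0.00357) and Pde3b (0.49, SE 0.08, adjusted p = 0.00162) rose. Among the other phosphodiesterases of this list, Pde7a was also called higher (0.38, SE 0.09, adjusted p = 0.0123). Pde4d (-0.77, SE 0.16, adjusted p = 0.00707) and Pde4a (-0.50, SE 0.09, adjusted p = 0.00417) were called lower, and Pde3a and Pde8a were not called. Rapgef4, a cyclic AMP-activated exchange factor for Rap GTPases, fell from 473 ± 74.9 to 155 ± 62.5 (log2 difference -1.68, SE 0.25, adjusted p = 0.00126). With the macrophage covariate Pkia was at 1.91 and still called. Pde4b was at 0.93 (adjusted p = 0.183), Pde3b at 0.27 (adjusted p = 0.234) and Rapgef4 at -0.93 (adjusted p = 0.229), so Pde4b lost its call with little change in its difference.

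Of 12 cyclic AMP response genes tested, 2 were called higher and 0 lower, with a median of 0.09, beside 13.0% higher and 12.7% lower over all tested genes. Dusp1, a phosphatase of MAP kinases, rose from 577 ± 15.4 to 736 ± 82.5 (log2 difference 0.34, SE 0.09, adjusted p = 0.0163). Crem, a transcription factor that includes a cyclic AMP-induced repressor, rose from 116 ± 3.73 to 147 ± 1.32 (log2 difference 0.34, SE 0.09, adjusted p = 0.0253). With the macrophage covariate both calls were lost, at 0.42 for Dusp1 and 0.30 for Crem. The Crem call was also lost without wild-type M1, M2 or M3 and without Lgr6-null M0 or M2, with log2 differences of 0.32, 0.35, 0.34, 0.34 and 0.34. Among 8 oxygen-sensing genes, which act upstream of Adm in hypoxia, 0 were called higher and 1 lower. That gene was Egln3, a hypoxia-induced prolyl hydroxylase, which fell from 437 ± 126 to 135 ± 62.0 (log2 difference -1.76, SE 0.32, adjusted p = 0.00378), while Adm differed in the other direction. Egln3 was at -3.26 with the macrophage covariate (adjusted p = 0.00185).

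**Figure D4:**
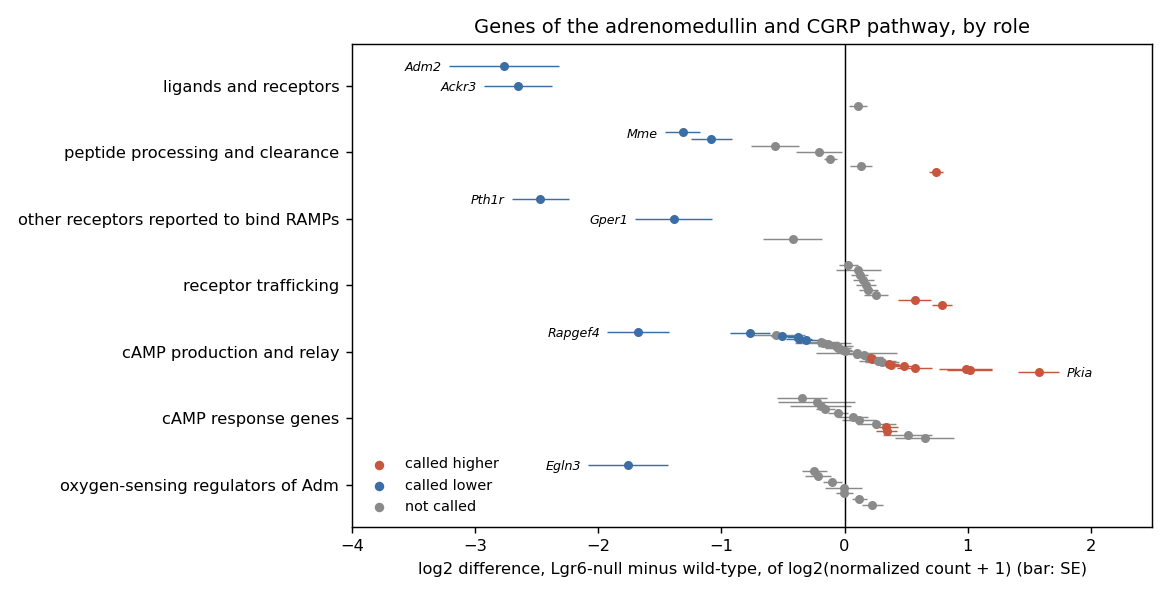
Log2 differences, Lgr6-null minus wild-type (x axis; bars give the SE of the limma fit), for the 72 tested pathway genes in 7 lists. Red points were called higher, blue lower and grey not called. Adm2 is the lowest at -2.77, and Pkia is the highest at 1.58.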

How the data were processed

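Per the submitters' processing notes, reads were handled with HISAT2 2.1.1, HTSeq 0.13.5 and DESeq2 on GRCm39; annotation, strand setting and filter: not given in the sources used here. Values deposited by the authors are a signal, read counts per gene divided by 1 size factor per library. In every column 100% of values were whole multiples of 1 step (tolerance 0.01 read), so whole reads were recovered; the lowest gene total was 11 reads. Columns carry the genotype and a number not tied to the titles' replicate numbers. Symbols and exon lengths came from GENCODE M21 (GRCm38) by gene identifier: 19361 matched and 99 did not.

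Genotypes were compared with limma 3.58.1 (R 4.3.3, mean-variance trend) on log2(normalized count + 1), for genes at 10 or more in at least 4 of 8 libraries, with Benjamini-Hochberg adjustment and calls under 0.05; the pseudocount understates changes of low genes. The fit was also run on simulated data, with an outcome not reported here, so nothing is read from that run. edgeR 4.0.16 on recovered reads called 1997 genes higher and 1750 lower. Library pairs of a genotype differed beyond sampling noise (lowest chi-square per degree of freedom 7.93).

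The members, the lists and the rule for named genes were chosen with earlier results of these data known. Named were Lgr6, the members, up to 4 called genes per list by smallest p (or the smallest p where none was called), all measured ligands and receptors, and the 3 genes with a mean of at least 50 most correlated with each tested member. The result of 1 called gene is not reported here. Vps25, Pam, Mbp, Tie1, Kdr, Erg, Tek, Emcn, Pde7a, Pde4d, Pde4a, Pde3a and Pde8a were named after their values were seen. These genes were not followed singly in the alternative runs. Marker lists for smooth muscle, adipocyte, Schwann and mesenchymal genes were counted as well.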

Additional observations from a re-analysis of the deposited data

Results flagged for a closer look

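In 6 of 52 groups of 4 libraries, 1 library stood apart from the other 3 by Dixon's criterion, which chance meets in about 1 of 20 groups. Ramp1 in wild-type was highest in M1, at 1199 normalized counts, with the others at 944 to 982. Ramp2 in wild-type was highest in M0, at 14.8, with the others at 5.06 to 5.68. Adm in wild-type was lowest in M0, at 172, with the others at 227 to 235. Ackr3 in Lgr6-null was highest in M2, at 634, with the others at 239 to 279. Mme in Lgr6-null was lowest in M3, at 719.6, with the others at 969.6 to 970.4. Rapgef4 in wild-type was highest in M1, at 584, with the others at 428 to 450.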

How the results depend on the processing

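Ramp1, Lgr6 and the other named results followed in the alternative runs kept direction and side of the threshold, except as given here and beside the genes in the text. The members were chosen on this contrast, so their side of the threshold in these runs supports nothing. With libraries scaled to the same total, 2886 genes and 23 pathway genes were called higher. With the macrophage covariate, 341 genes were called higher and 552 lower, 4 pathway genes higher and 5 lower; Calcrl was at 0.10 and Adm at 0.35, neither past the threshold, and Arrb2 and Crcp reversed, to -0.020 and -0.0072; the cause was not tested. With a replicate block on the column number, 937 genes were called higher and 1021 lower, 8 pathway genes higher and 7 lower. Calcrl was at 0.86 and Adm at 0.59, neither past the threshold, and Gper1 (-1.48), Dusp1 (0.28) and Crem (0.32) lost their calls. M1 is found only in wild-type and M4 only in Lgr6-null, so in this fit neither informs the genotype difference. Deviations of same-numbered libraries correlated at -0.01, -0.12 and 0.03 for M0, M2 and M3, so no pairing was seen. The labels do not say what the numbers stand for. With the longest transcript as length, Ramp1 over Calcrl was 9.12 in wild-type and 0.848 in Lgr6-null, where M2 was above 1, at 1.22. The same length, added after seeing the data for the share of Ramp1 among the Ramps, gave 98.0% in wild-type and 92.9% in Lgr6-null. Leaving out each library in turn gave 1321 to 1839 genes higher and 1375 to 1769 lower, 12 to 18 and 11 to 14 pathway genes, Calcrl from 0.54 to 0.82, Ramp1 from -2.82 to -2.64 and Adm from 0.49 to 0.67. Depth limits Ramp2 and Ramp3, with 53 and 27 reads over all libraries.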
